A study of Rattus norvegicus with 48 samples.

Results

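The muscle by immobilization interaction in LRT is the difference between the response of the plantaris and the response of the soleus to a hindlimb cast, within the rat line bred as low responders to endurance training. It was computed for each gene as the log2 fold change of cast (HI) against uncast (CTRL) in plantaris minus the same fold change in soleus. A positive value is called higher in plantaris here, whether the gene rose more or fell less there, and a negative value lower in plantaris. It rests on 24 of the 48 RNA sequencing libraries of the series, all those of the LRT line, in 4 groups of 6: LRT_HI_PLN, LRT_CTRL_PLN, LRT_HI_SOL and LRT_CTRL_SOL.

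The 12 LRT rats were females of generation 19, aged 14 months. In the HI rats 1 hindlimb was held in a plantar-flexion cast for 3 d, and the CTRL rats were other animals that wore no cast. All 12 had earlier run a treadmill training programme and received puromycin shortly before the muscles were taken, so both are shared by HI and CTRL. The lines are outbred, so rats of a group are not genetically identical, and each library came from homogenised muscle tissue. In such libraries fewer cells of a type and less RNA per cell cannot be told apart. The remaining 24 libraries are of the high responder line (HRT), with the same muscles, treatments and group sizes, and served to set the same interaction beside that of LRT and in an alternative fit of all 48 libraries.

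The plantaris and the soleus share a task at the ankle but not a fibre make-up. The soleus is a postural muscle of mostly slow, oxidative fibres that is active through much of the day, whereas the plantaris holds mostly fast fibres and is recruited for stronger, briefer efforts. When a muscle is unloaded or loses its nerve, the ubiquitin ligases Trim63 (MuRF1) and Fbxo32 (atrogin-1) mark its proteins for the proteasome, lysosomal degradation is raised, and myogenin (Myog) together with class II histone deacetylases forms part of the denervation program. Genes such as Egr1, Fosb and Myc respond within minutes to hours to contraction, stretch or injury.

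Total estimated counts were between 26.8 M and 36.4 M per library over the 4 groups. RNA integrity numbers (RIN) were 8.1 to 8.5 in LRT_CTRL_PLN, 8.3 to 8.6 in LRT_HI_PLN, 7.9 to 8.4 in LRT_CTRL_SOL and 7.8 to 8.2 in LRT_HI_SOL, so RIN moved with group, and it was a covariate in the fit. The muscle labels were checked against 6 fast and 5 slow fibre markers. The summed level of the fast markers was 16800 to 22400 CPM (counts scaled to the library total after TMM) in LRT_CTRL_PLN and 1040 to 2350 in LRT_CTRL_SOL, and that of the slow markers was 3010 to 4620 in LRT_CTRL_PLN and 16000 to 23800 in LRT_CTRL_SOL. Most of the slow sum was Car3, at 2420 to 4050 CPM in LRT_CTRL_PLN and 11600 to 21100 CPM in LRT_CTRL_SOL. The slow marker Pln was not higher in soleus, at 14.8 to 34.9 CPM in LRT_CTRL_PLN and 11.5 to 27.6 CPM in LRT_CTRL_SOL. Plantaris and soleus libraries with the same rat number deviated together from their group means in 12 of 12 pairs (r between 0.14 and 0.4 over genes), so the numbers were taken to mark the rat. HI rats 1 and 3 stood apart: their plantaris lay 0.87 and 0.84 log2 units (root mean square over genes) from the CTRL mean, against 0.44 to 0.59 for the other 4. Their soleus lay at 0.66 and 0.67, against 0.44 to 0.6.

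Of 16362 genes tested, 240 (1.47%) had an interaction with an adjusted p under 0.05, from edgeR's quasi-likelihood test with Benjamini-Hochberg adjustment. Of these, 141 (0.862% of all tested) were higher in plantaris and 99 (0.605%) were lower. The differences were mostly moderate in size, since 109 of the 240 exceeded 1 on the log2 scale. With the rat as a block, which uses the pairing of the muscles, 1096 genes (6.7%) passed, 535 (3.27%) higher and 561 (3.43%) lower, and 229 of the 240 were among them with the same sign. When the data were scaled by library totals alone, the median interaction of all genes moved from -0.034 to 0.109 and the balance became 235 higher against 45 lower, so directions here are relative to the median gene. Without HI rats 1 and 3 in both muscles 79 genes passed, 44 higher and 35 lower, and 49 of them belonged to the 240. All 240 kept their sign in that fit, but they were chosen on the same contrast in libraries that it shares.

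Most interaction genes were genes of the plantaris response. In plantaris 2580 genes rose (15.8%) and 2428 fell (14.8%) at an adjusted p under 0.05, while in soleus 853 rose (5.21%) and 709 fell (4.33%). This balance rests on the scaling: with library totals alone 5848 rose and 1059 fell in plantaris and 1537 rose and 363 fell in soleus, with the median gene at 0.261 and 0.14, and with DESeq2 size factors 739 rose and 790 fell in soleus. Among the 141 higher genes, 118 passed in plantaris alone, 11 in soleus alone, 10 in both muscles in opposite directions and 2 in both in the same direction. Among the 99 lower genes, the counts were 72, 22, 5 and 0. The estimates in the muscles had opposite signs for 185 of the 240, and the plantaris estimate was the larger in size for 193. These counts only describe the chosen genes, since choosing on a difference between the muscles favours opposite signs. Most of the soleus estimates counted did not pass. The same contrast can be described by the plantaris minus soleus difference within each rat, on the log2 CPM scale. For 177 of the 240 genes, 104 higher and 73 lower, this difference lay in separate ranges in cast and uncast rats, as it did for 843 (5.15%) of all genes tested. The 240 were chosen on this contrast in the same libraries. Their larger share therefore follows largely from the choice and is no separate evidence.

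**Figure D1:**
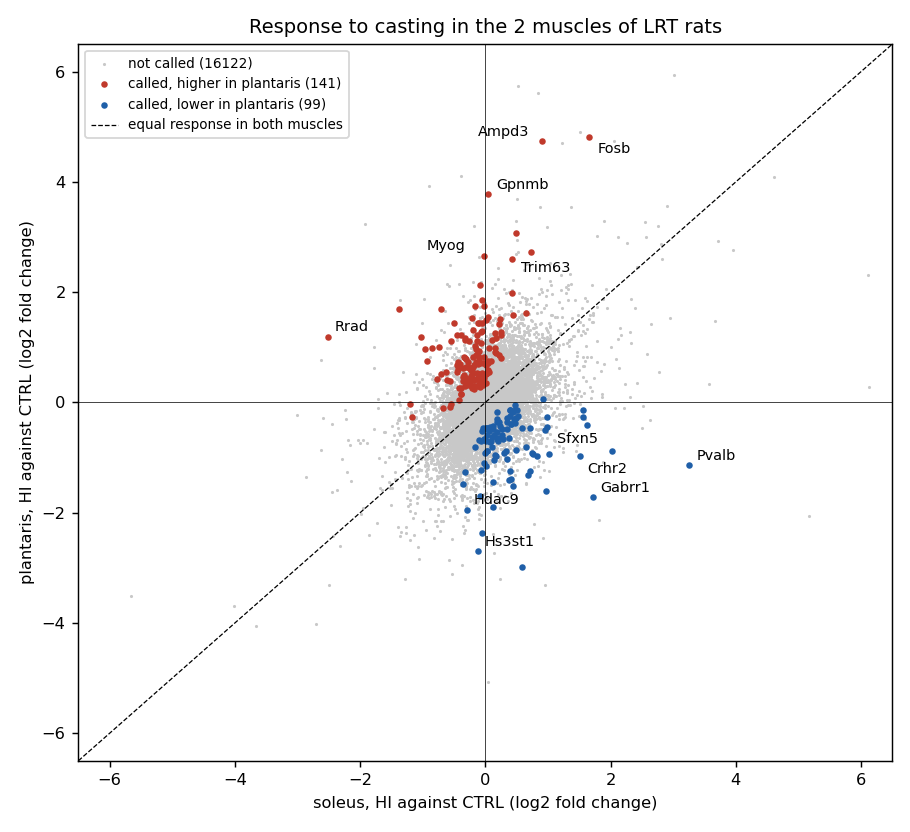
Response to casting of each tested gene in LRT soleus (horizontal axis, log2 fold change of HI against CTRL) and LRT plantaris (vertical axis, same scale), with 141 genes higher in plantaris in red, 99 lower in blue, the rest in grey and the line of equal response dashed. The called genes lie to the sides of that line, most of them close to a soleus change of 0, and 1 gene falls outside the axes.

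Gene symbols could be given only to the 1148 tested identifiers that the gene tables of the study pair with one, and those tables hold genes that the study called changed by casting in some muscle and line. Of the 240 genes 72 had a symbol and 168 had none. The gene lists below therefore hold only genes already known to move on casting in this series. Over all 1148 such genes 43 (3.75%) were higher in plantaris, 29 (2.53%) were lower and the median interaction was -0.22, against -0.03 over all genes tested. With the rat as a block 146 (12.7%) were higher and 189 (16.5%) lower. In plantaris 334 (29.1%) rose and 431 (37.5%) fell, and in soleus 161 (14%) rose and 149 (13%) fell, and the counts of each list are to be read against these shares.

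Trim63 and Fbxo31, both of the ubiquitin system, rose more in plantaris than in soleus. Trim63 ran from 199 to 266 CPM (median 227) in LRT_CTRL_PLN and from 391 to 2580 CPM (median 1040) in LRT_HI_PLN. In soleus it ran from 90.5 to 175 CPM (median 153) without and from 97.2 to 305 CPM (median 205) with the cast. All 6 cast plantaris muscles lay above all 6 uncast ones, whereas the soleus groups overlapped. The interaction of Trim63 was 2.17 ± 0.51 (SE; adjusted p = 0.039), and 0.0066 with the rat as a block. The calls of both Trim63 and Fbxo31 were lost without HI rats 1 and 3 and with limma-voom. Fbxo31, the substrate receptor of another ubiquitin ligase, had a smaller interaction of 0.97 ± 0.24 (adjusted p = 0.043) and rose in both muscles, by 1.63 in plantaris and 0.65 in soleus on the log2 scale. Fbxo32 did not pass: its values were 113 to 387 CPM and 524 to 1650 CPM in plantaris and 62.7 to 264 CPM and 207 to 502 CPM in soleus, CTRL before HI, with an interaction of 1.83 ± 0.53 (adjusted p = 0.073, and 0.075 with the block). In the fit of all 48 libraries the LRT interaction of Fbxo32 was 1.77 and passed (adjusted p = 0.038).

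Of the 24 ubiquitin and proteasome genes listed, 2 were higher in plantaris, 0 were lower, and the median interaction was 0.89. In plantaris 18 rose and 3 fell, and in soleus 2 rose and 0 fell. With the rat as a block 14 were higher and 1 lower. Of all genes with a symbol 29.1% rose in plantaris and 12.7% were higher with the block. No member (0 of 24) was called for the interaction without HI rats 1 and 3. Among the 14 were the proteasome subunit genes Psmd11, Psmd3 and Psmd8 and the chaperone of proteasome assembly Psmd5, with interactions of 1.04, 0.85, 1.13 and 1.13 and blocked adjusted p-values of 0.011, 0.016, 0.025 and 0.012. Nploc4, a cofactor of the segregase that draws ubiquitinated proteins from complexes, ran from 72 to 79 CPM in LRT_CTRL_PLN and from 107 to 342 CPM in LRT_HI_PLN, and its interaction was 1 ± 0.29 (adjusted p = 0.073, and 0.0066 with the block). The 1 member lower with the block was the ligase gene Trim35 (-0.74, 0.036).

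Gaa and Fam134b, of the lysosome and autophagy, were also higher in plantaris. Gaa, the acid glucosidase that breaks down glycogen in lysosomes, ran from 79.7 to 126 CPM in LRT_CTRL_PLN and from 166 to 344 CPM in LRT_HI_PLN, with no overlap. In soleus it ran from 98.2 to 132 CPM and from 104 to 170 CPM, CTRL before HI, with overlap. Its interaction was 1.02 ± 0.2 (adjusted p = 0.025). Fam134b, a receptor that delivers endoplasmic reticulum to autophagy, moved apart in the muscles: the median went from 12.5 to 27.3 CPM in plantaris and from 25.4 to 8.51 CPM in soleus. The plantaris rise passed (1.18, adjusted p = 0.014), the soleus value did not (-1.03, 0.065), and the interaction was 2.21 ± 0.5 (adjusted p = 0.036). Within rats, the plantaris minus soleus difference of Fam134b was 0.18 to 2.07 in HI and -1.25 to -0.09 in CTRL. Of the 13 autophagy and lysosome genes these 2 were higher, 0 were lower and the median was 0.9. In plantaris 12 rose and 1 fell, and in soleus 3 rose. With the block 6 were higher and 1 was lower, the higher ones including the autophagy receptor Sqstm1 (0.97, 0.0078) and Foxo1, a transcription factor that drives atrophy genes (1.06, 0.03). Tp53inp1 rose in both muscles, by 1.59 and 1.48, and its interaction was 0.11 (adjusted p = 0.88).

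Ampd3 and Myog were higher in plantaris and Hdac9 was lower, all from the list of denervation and junction genes. Ampd3, an AMP deaminase of the purine nucleotide cycle, was low in uncast plantaris, at 7.24 to 18.2 CPM (median 10), and ran from 28.2 to 713 CPM (median 136) in cast plantaris. In soleus it ran from 71.7 to 114 CPM (median 82.8) and from 59.3 to 293 CPM (median 146). The plantaris groups did not overlap and the soleus groups did, and HI rats 1 and 3 held the highest plantaris values. The plantaris rose by 4.74 on the log2 scale, the soleus value was 0.91 (adjusted p = 0.3), and the interaction was 3.84 ± 0.79 (adjusted p = 0.025). Without HI rats 1 and 3 the calls of Ampd3 and Hdac9 were kept and that of Myog was lost. Myog, a muscle regulatory factor that binds E-box motifs and is raised by denervation, ran from 13.6 to 27.1 CPM in LRT_CTRL_PLN and from 43.2 to 250 CPM in LRT_HI_PLN, and from 43.1 to 131 and 45.8 to 125 CPM in soleus. The interaction of Myog was 2.67 ± 0.56 (adjusted p = 0.027), and the soleus value was -0.02. Hdac9, a class II deacetylase that restrains transcription by MEF2, fell in plantaris from 26.7 to 34.8 CPM to 3.73 to 15.1 CPM, and went from 29.5 to 38.4 CPM to 17.6 to 33.7 CPM in soleus. Its interaction was -1.65 ± 0.39 (adjusted p = 0.039).

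Among the 15 denervation and junction genes these were the calls, 2 higher and 1 lower, with a median of 0.93. With the rat as a block 4 were higher and 2 lower. In plantaris 8 rose and 2 fell, and in soleus 2 rose and 1 fell. Hdac4, the deacetylase through which denervation raises Myog, rose in both muscles: from 17.1 to 24.2 CPM to 78.1 to 234 CPM in plantaris and from 11.7 to 20.1 CPM to 25.5 to 176 CPM in soleus, with no overlap in either. Its interaction was 0.62 ± 0.56 (adjusted p = 0.57). Gadd45a, another gene of that program, also rose in both, by 3.3 and 1.9. Ache, the acetylcholinesterase of the junction, fell in plantaris (-2.02, adjusted p = 0.00084), was -0.1 in soleus and did not pass the interaction without the block and did with it (-1.92, adjusted p = 0.072, and 0.012 with the block).

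The promoters of Myog, Trim63 and Gpnmb are shown as examples from the 36 called higher genes with a symbol that passed in plantaris and not in soleus, and because E-boxes are the motif bound by myogenin and related factors. Each line gives the 250 bases before the RefSeq gene start in the rat build GRCr8, 5′ to 3′ on the gene's strand, with every CANNTG in capitals. CANNTG reads as the same motif on both strands. The windows are chr13:48297226-48297475 for Myog, chr5:151816986-151817235 for Trim63 and chr4:79340878-79341127 for Gpnmb, all on the + strand.
Myog: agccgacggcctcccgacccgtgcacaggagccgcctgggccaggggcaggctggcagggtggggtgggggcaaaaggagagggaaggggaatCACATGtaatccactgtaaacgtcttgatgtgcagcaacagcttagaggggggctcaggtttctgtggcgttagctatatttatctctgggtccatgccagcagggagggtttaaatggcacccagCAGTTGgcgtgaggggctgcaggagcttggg
Trim63: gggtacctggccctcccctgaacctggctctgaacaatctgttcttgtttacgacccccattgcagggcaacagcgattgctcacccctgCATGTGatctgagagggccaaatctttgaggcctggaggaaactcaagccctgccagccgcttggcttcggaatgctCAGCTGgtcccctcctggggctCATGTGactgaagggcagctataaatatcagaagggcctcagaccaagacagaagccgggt
Gpnmb: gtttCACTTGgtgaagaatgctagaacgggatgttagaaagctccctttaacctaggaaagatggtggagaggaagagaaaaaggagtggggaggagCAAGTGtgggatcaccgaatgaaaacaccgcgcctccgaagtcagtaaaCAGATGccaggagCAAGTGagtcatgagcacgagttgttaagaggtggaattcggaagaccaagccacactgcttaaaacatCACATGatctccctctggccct
Myog holds 2 such motifs, starting 157 and 31 bases before the gene start, Trim63 holds 3, at 160, 83 and 61 bases, and Gpnmb holds 5, at 246, 153, 104, 91 and 22 bases. Of 33469 rat promoters of this length 65.5% hold at least 1, 30.8% at least 2, 11.5% at least 3 and 0.923% at least 5. Of the symbols among the called genes, 31 of 42 higher and 26 of 29 lower ones matched a promoter, and 35.5% and 76.9% of these hold at least 1. Among the higher ones the median promoter holds 0, 19.4% hold at least 2, 9.68% at least 3 and 3.23% at least 5, so the 3 shown are richer in the motif than most of them. A letter match is a description of the window and not evidence of binding.

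Gpnmb, a membrane glycoprotein of lysosomes that macrophages make in quantity, ran from 3.24 to 6.6 CPM (median 4.5) in LRT_CTRL_PLN and from 12.1 to 155 CPM (median 37.7) in LRT_HI_PLN. In soleus it ran from 7.47 to 29.5 CPM (median 11.9) and from 9.42 to 23.3 CPM (median 14.4). The plantaris groups were separate, with HI rats 1 and 3 highest, and the soleus groups overlapped. The interaction was 3.73 ± 0.71 (adjusted p = 0.022). It was the 1 called gene among 11 immune cell markers, whose median interaction was 0.03. In plantaris 4 of the 11 rose and 2 fell, and in soleus 0 passed. The summed level of the 11 was 23 to 33.7 CPM in LRT_CTRL_PLN and 29.7 to 182 in LRT_HI_PLN, but Gpnmb itself made up most of that rise. The other 10 summed to 17.7 to 30.1 CPM in LRT_CTRL_PLN, 16.5 to 31.8 in LRT_HI_PLN, 17.1 to 27.3 in LRT_CTRL_SOL and 19.1 to 34.1 in LRT_HI_SOL, and these ranges overlapped. Their interactions ran from -0.44 for S100a9 (adjusted p = 0.86) to 1.39 for Sla2, an adaptor of lymphocyte receptors (adjusted p = 0.14). Besides Gpnmb the genes that rose in plantaris were Sla2 (1.16), Lilrb3 (0.94) and Clec9a (0.73), and Siglec5 and Siglec10 fell (-0.8 and -0.82). Whether a change in cell make-up takes part in the Gpnmb difference was not tested. The call of Gpnmb was lost without HI rats 1 and 3 and with limma-voom.

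**Figure D2:**
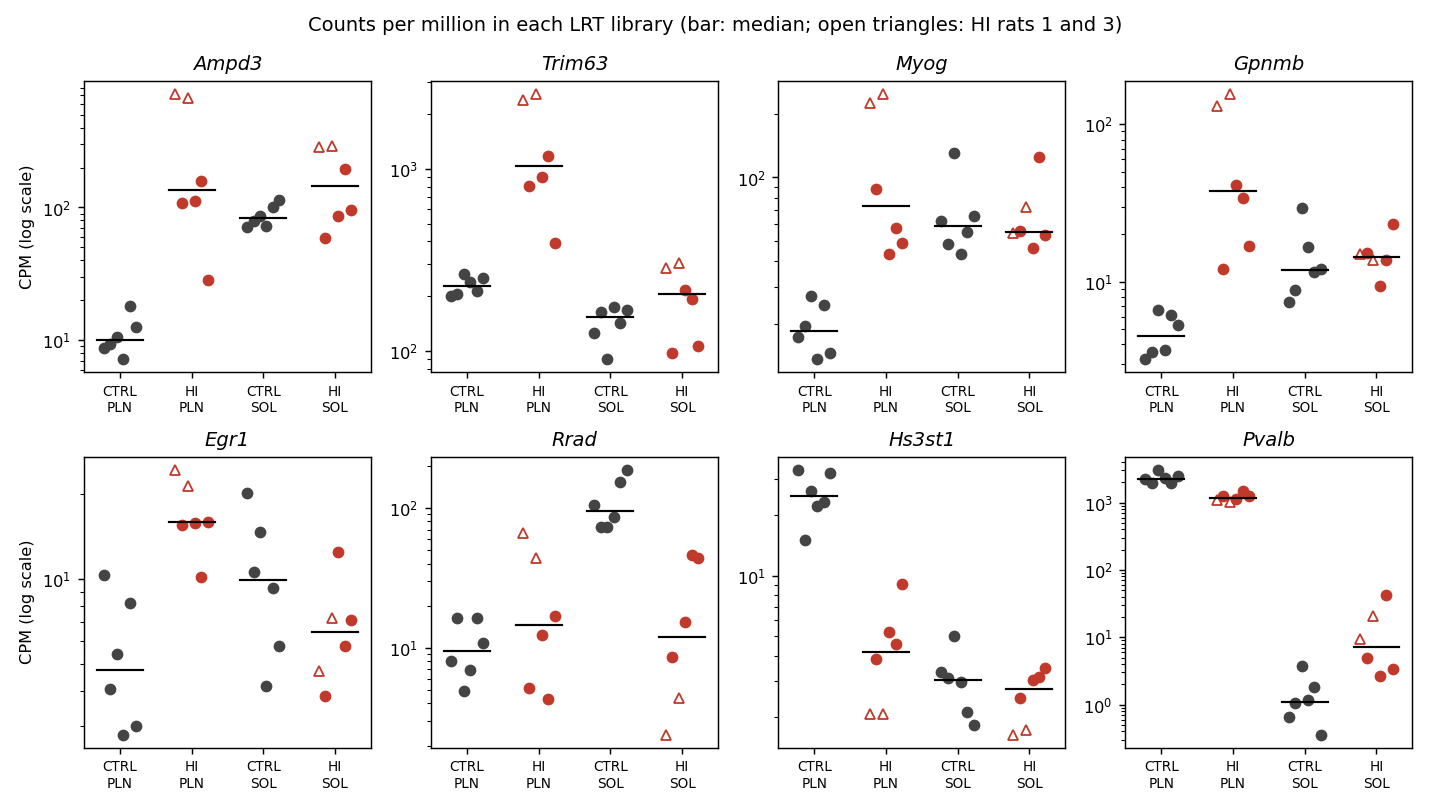
CPM (log axis) of 8 genes in every LRT library, uncast in grey and cast in red, with group medians as bars and HI rats 1 and 3 as open triangles. Ampd3, Trim63, Myog and Gpnmb separate upwards and Hs3st1 downwards in plantaris, all overlapping in soleus, Egr1 overlaps in both, and Rrad separates in soleus alone.

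Of the activity-induced genes Egr1, Fosb and Myc were called, all higher in plantaris. Egr1 ran from 2.8 to 10.3 CPM (median 4.75) in LRT_CTRL_PLN and from 10.2 to 24.3 CPM (median 15.8) in LRT_HI_PLN, and from 4.17 to 20.2 CPM (median 9.91) and 3.85 to 12.5 CPM (median 6.47) in soleus. In plantaris 5 of 6 cast muscles exceeded all uncast ones. Its interaction was 2.4 ± 0.53 (adjusted p = 0.033). Fosb, a partner of Jun in AP-1, ran from 0.327 to 1.29 CPM to 9.08 to 26.7 CPM in plantaris and from 0.296 to 4.52 CPM to 1.29 to 7.66 CPM in soleus. It rose in both muscles, by 4.81 and 1.65, and the interaction was 3.16 ± 0.76 (adjusted p = 0.04, and 0.057 with the block). Myc, which promotes growth and ribosome production, ran from 2.36 to 4.14 CPM to 4.66 to 25.3 CPM in plantaris and from 3.05 to 5.3 CPM to 1.94 to 6.22 CPM in soleus, with an interaction of 2.22 ± 0.5 (adjusted p = 0.036).

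All 16 members of this list had a positive interaction, against 512 of the 1148 genes with a symbol, and the median was 1.76. Of the 16, 3 were called higher, and 6 with the block. The components differed by gene. In plantaris 9 rose and 1 fell, while in soleus 1 rose and 7 fell. Atf3, Nr4a2, Nr4a3 and Klf4 fell in soleus, by -2.63, -2.3, -3 and -0.99 on the log2 scale, with plantaris values of -0.86, -1.03, -0.22 and -0.05 that did not pass. Junb and Maff rose in plantaris, by 2.05 and 2.15, and their interactions of 1.75 and 2.58 had adjusted p-values of 0.055 and 0.05, the latter just above the threshold before rounding. Without HI rats 1 and 3 the median of the list was 1.1 and 0 members were called.

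Nfkb2, Map3k14 and Smad3 were picked from the other called symbols after their values were seen. Nfkb2 and Map3k14, the precursor and the kinase of the alternative NF-κB pathway, had interactions of 1.92 and 1.77 (adjusted p = 0.025 and 0.047). Smad3, the transducer of TGF-β and myostatin signals, and Ltbp1, which holds latent TGF-β in the matrix, had interactions of 1.55 and 1.75 (adjusted p = 0.025 and 0.047). With the rat as a block the call of Ltbp1 was lost (adjusted p = 0.058), and without HI rats 1 and 3 that of Smad3 alone among these was kept. The call of Map3k14 was kept in 6 of the 24 fits with 1 library left out, and was lost with limma-voom and without CTRL rat 3. All 4 rose in plantaris, by 1.75, 1.75, 1.44 and 1.53, and their soleus values, between -0.219 and -0.025, did not pass. Without the block Ltbp1 was the 1 called gene of 28 extracellular matrix genes, which had a median of -0.48. With the block 0 members were higher and 3 were lower, namely Mfap4, Mfap5 and Col6a6. In that list 17 genes fell and 1 rose in plantaris, and 6 fell in soleus, and the collagen gene Col5a3 fell in both (-1.48 and -1.5). Col3a1 and Col5a2 fell in plantaris (-1.33 and -1.13), had soleus values of -0.4 and -0.35 that did not pass, and did not pass the interaction (adjusted p = 0.36 and 0.26). Mfap4, a microfibril protein, was at 0 to 0.584 CPM in cast plantaris against 1.6 to 5.78 CPM in uncast plantaris and did not pass the interaction (adjusted p = 0.072, and 0.047 with the block).

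Srxn1, Hmox1 and Cat, of the antioxidant genes, were higher in plantaris. Srxn1, which restores oxidised peroxiredoxins, ran from 0.509 to 1.23 CPM and 1.35 to 11.7 CPM in plantaris and from 0.769 to 1.46 CPM and 0.455 to 3.31 CPM in soleus, CTRL before HI. The plantaris groups did not overlap, and the interaction was 2.6 ± 0.66 (adjusted p = 0.049, and 0.0067 with the block). Hmox1, the haem oxygenase, ran from 2.54 to 4.09 CPM to 5.22 to 44.4 CPM in plantaris and from 3.16 to 5.66 CPM to 5.9 to 14.5 CPM in soleus. The soleus groups did not overlap either, although that contrast did not pass (0.73, adjusted p = 0.19). The interaction of Hmox1 was 2 ± 0.49 (adjusted p = 0.045, and 0.06 with the block). Cat, the catalase that removes hydrogen peroxide, rose in plantaris by 1.27 and was -0.07 in soleus, with an interaction of 1.35 ± 0.31 (adjusted p = 0.036). Bach1, a repressor of Hmox1, was also called (1.22, adjusted p = 0.036) and was named after its value was seen, but the call was lost without CTRL rat 3 and was kept in 15 of the 24 fits with 1 library left out. The metallothioneins Mt1 and Mt2A, which bind zinc and copper, rose in both muscles, by 2.46 and 2.06 in plantaris and 2.41 and 1.93 in soleus, with interactions of 0.05 and 0.13 (adjusted p = 0.98 and 0.93). Of the 18 metallothionein and antioxidant genes 3 were higher and 0 lower, and the median was 0.59. With the block 5 were higher and 1 was lower, Sod3, the extracellular superoxide dismutase (-0.79, 0.21 and 0.034). In plantaris 14 rose and 2 fell, and in soleus 6 rose and 1 fell.

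Slc37a4 was lower in plantaris, and 18 of the 22 genes of glycolysis and glycogen fell there. Of the 22 members 1 was called lower, 0 higher, and the median interaction was -1.06. In plantaris 1 rose, in soleus 0 fell and 2 rose, and with the rat as a block 13 were lower. Of all genes with a symbol 37.5% fell in plantaris and 16.5% were lower with the block. The summed fast fibre markers were also lower in cast plantaris, at 5530 to 14200 CPM against 16800 to 22400 CPM without the cast. In soleus they were 1040 to 2350 CPM and 1040 to 2140 CPM, CTRL before HI. The summed slow markers had medians of 21800 and 7420 CPM in soleus and 3450 and 2680 CPM in plantaris. Car3 made up most of these sums, with medians of 19000 and 6490 CPM in soleus and 3050 and 2330 CPM in plantaris. Of the 5 slow markers Car3 alone passed in soleus (-1.06, adjusted p = 0.022), and 2 fell in plantaris. Whether fibre make-up takes part in these falls was not tested. The called gene was Slc37a4, which carries glucose-6-phosphate into the endoplasmic reticulum. It ran from 101 to 167 CPM in LRT_CTRL_PLN and from 21 to 83 CPM in LRT_HI_PLN, and from 29.4 to 52.6 CPM and 43.3 to 68.7 CPM in soleus, so its cast plantaris values reached the soleus range. Its interaction was -1.63 ± 0.41 (adjusted p = 0.047), a call kept in 7 of the 24 fits with 1 library left out and lost without CTRL rat 3. The muscle phosphoglycerate mutase Pgam2 ran from 2180 to 2760 CPM to 177 to 1400 CPM in plantaris and from 375 to 639 CPM to 280 to 656 CPM in soleus, without overlap in plantaris. It passed with the block (-1.74 ± 0.53, adjusted p = 0.082, and 0.015 with the block), as did the lactate dehydrogenase gene Ldha (-1.22, 0.23 and 0.017) and the muscle enolase gene Eno3 (-1.12, 0.14 and 0.016). Aldoc, the brain form of aldolase, rose in both muscles, by 0.69 in plantaris and 1.9 in soleus, and its interaction of -1.21 passed with the block and not without it (adjusted p = 0.012 and 0.078).

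Of 30 mitochondrial genes 0 were called in either direction and the median interaction was -0.6. In plantaris 25 fell and 1 rose, and in soleus 5 fell and 0 rose. With the rat as a block 10 were lower and 2 higher. Ckmt2, the mitochondrial creatine kinase, ran from 1090 to 1480 CPM to 286 to 773 CPM in plantaris and from 1760 to 2730 CPM to 891 to 1820 CPM in soleus, and its interaction was -0.81 ± 0.33 (adjusted p = 0.19, and 0.043 with the block). Ppargc1a, the coactivator that drives mitochondrial genes, fell by 1.11 in plantaris and was -0.18 in soleus, with an interaction of -0.93 (adjusted p = 0.24, and 0.047 with the block). Esrrg, a nuclear receptor of oxidative fibres, fell in soleus (-1.04) and was -0.19 in plantaris, where it did not pass (interaction 0.85, 0.14 and 0.037).

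Pvalb and Rrad, called in opposite directions, belong to the handling of calcium. Pvalb, the cytosolic calcium buffer of fast fibres, ran from 1940 to 3050 CPM (median 2270) in LRT_CTRL_PLN and from 1020 to 1500 CPM (median 1190) in LRT_HI_PLN. In soleus it ran from 0.36 to 3.75 CPM (median 1.11) and from 2.64 to 42.2 CPM (median 7.09). The plantaris ranges were separate although that contrast did not pass (-1.14, adjusted p = 0.086), and the soleus rose by 3.25. Its interaction was -4.38 ± 0.74 (adjusted p = 0.013). The other 5 fast fibre markers had interactions between -1.33 and -0.44 and did not pass, although Casq1 (-1.07) passed with the block. Rrad, a small GTPase that restrains calcium channels, ran from 4.91 to 16.4 CPM and 4.3 to 66.4 CPM in plantaris, with overlap, and from 72.9 to 187 CPM and 2.4 to 46 CPM in soleus, without overlap. It fell in soleus by 2.52, was 1.19 in plantaris (adjusted p = 0.19), and had an interaction of 3.7 ± 0.94 (adjusted p = 0.048, and 0.086 with the block).

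The lower genes also included receptors and enzymes whose plantaris level fell towards that of the soleus. Hs3st1, a heparan sulfate sulfotransferase, ran from 15 to 33.2 CPM (median 24.6) in LRT_CTRL_PLN and from 2.06 to 9.08 CPM (median 4.21) in LRT_HI_PLN, and its soleus values were 1.84 to 5.02 CPM and 1.64 to 3.49 CPM. All cast plantaris muscles lay below all uncast ones. The interaction was -2.58 ± 0.43 (adjusted p = 0.012, and 0.0018 with the block). Lpar3, a receptor for lysophosphatidic acid, fell by 1.52 in plantaris and had an interaction of -1.96 (adjusted p = 0.038). Pon3, a lactonase, ran from 2.73 to 4.14 CPM to 0.74 to 2.14 CPM in plantaris and from 0.36 to 1.21 CPM to 0.433 to 1.15 CPM in soleus (interaction -1.8 ± 0.38, adjusted p = 0.025). Ufsp1, a protease of the UFM1 system, had an interaction of -1.79 (adjusted p = 0.036).

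Other lower genes rose in soleus. Sfxn5, a mitochondrial carrier, ran from 12.7 to 22.9 CPM and 6.28 to 12.7 CPM in plantaris and from 0.89 to 2.02 CPM and 2.43 to 4.39 CPM in soleus. It fell in plantaris by 0.94 and rose in soleus by 1.02, and its interaction was -1.96 ± 0.32 (adjusted p = 0.011). Gabrr1, a subunit of a GABA receptor, ran from 2.94 to 8 CPM and 0.47 to 2.74 CPM in plantaris and from 0.0975 to 0.509 CPM and 0.185 to 2.44 CPM in soleus, and moved by -1.72 and 1.72 (interaction -3.44 ± 0.71, adjusted p = 0.025). Crhr2, the receptor for urocortins, rose in soleus from 1.34 to 3.48 CPM to 3.59 to 11.5 CPM, with no overlap. In plantaris Crhr2 was -0.98 (adjusted p = 0.066), and the interaction was -2.49 ± 0.6 (adjusted p = 0.04). Ubap1l and Tbc1d10c, a regulator of Rab GTPases, rose in soleus by 1.62 and 1.55, did not pass in plantaris, and had interactions of -2.02 and -1.81 (adjusted p = 0.04 each). Rcsd1, which binds the capping protein of actin, fell in plantaris by 0.93 and was 0.77 in soleus (adjusted p = 0.062), and all 6 cast soleus muscles lay above the uncast ones. Its interaction was -1.7 ± 0.38 (adjusted p = 0.036).

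Among the genes with the smallest interaction p was Dusp13, a dual specificity phosphatase gene with muscle and testis forms. It ran from 94.6 to 128 CPM in LRT_CTRL_PLN and from 176 to 291 CPM in LRT_HI_PLN, and from 90.1 to 122 CPM and 98.2 to 134 CPM in soleus. The plantaris groups did not overlap, and the interaction was 1.02 ± 0.16 (adjusted p = 0.011). The symbol is paired with a second identifier, which was also called (1.14, adjusted p = 0.047) but kept that call in 6 of the 24 fits with 1 library left out, and reads shared between them may have been split by the quantification. Midn, a nuclear protein that carries substrates to the proteasome without ubiquitin, rose in plantaris by 1.43, was -0.51 in soleus, and had an interaction of 1.94 ± 0.41 (adjusted p = 0.027). Of the 168 called identifiers without a symbol, 4 are given by the rule. ENSRNOG00000002864 had the smallest adjusted p of all (0.0032), with a rise of 0.39 in plantaris, a fall of 0.56 in soleus and an interaction of 0.95 ± 0.13. ENSRNOG00000014316 followed the same pattern (0.38 and -0.32, interaction 0.7), ENSRNOG00000051039 the opposite one (-0.39 and 0.41, interaction -0.8), and ENSRNOG00000014720 fell in plantaris alone (-0.98, interaction -1.15). The calls of ENSRNOG00000002864 and ENSRNOG00000014316 were lost in the fit of all 48 libraries (adjusted p = 0.072 and 0.11).

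Of 12 chaperone genes 9 fell and 0 rose in soleus, and 3 fell and 0 rose in plantaris. The interaction was positive in 11 of 12, against 512 of the 1148 genes with a symbol, and the median was 0.78. Without the block 0 were called, and with it 3 were higher and 1 was lower. Hspa1b, the inducible Hsp70, ran from 15 to 21.3 CPM and 6.01 to 27.4 CPM in plantaris and from 46.9 to 96.7 CPM and 3.34 to 32.4 CPM in soleus, where the groups did not overlap. Its interaction was 2.31 ± 0.64 (adjusted p = 0.065, and 0.045 with the block). Hsph1, the nucleotide exchange factor of Hsp70, fell in soleus by 0.97, was 0.12 in plantaris, and passed with the block (1.09 ± 0.29, adjusted p = 0.055, and 0.024 with the block). For Hspa5, the chaperone of the endoplasmic reticulum, 1 uncast soleus (rat 3) stood at 738 CPM, and the other 5 lay between 151 and 225.

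Of 10 clock genes 1 was called, Bhlhe41, a repressor of the clock that also restrains muscle genes. It ran from 11.8 to 19.7 CPM in LRT_CTRL_PLN and from 3.11 to 11 CPM in LRT_HI_PLN, and from 3.02 to 8.16 CPM and 3.68 to 10.7 CPM in soleus. Its interaction was -1.99 ± 0.49 (adjusted p = 0.045, and 0.0022 with the block), and the median of the list was -0.47. With the block 0 members were higher and 3 lower. Of 8 insulin and growth signalling genes 1 was called, or 3 higher and 1 lower with the block. The called gene was Eif4g3, a scaffold of translation initiation. It ran from 83.9 to 104 CPM to 149 to 236 CPM in plantaris and from 92.5 to 117 CPM to 95.7 to 177 CPM in soleus, and its interaction was 1.01 ± 0.22 (adjusted p = 0.028). Pik3ip1, an inhibitor of phosphoinositide 3-kinase, rose in soleus from 6.55 to 26.9 CPM to 31.3 to 109 CPM and was 0.15 in plantaris (interaction -1.7 ± 0.52, adjusted p = 0.081, and 0.038 with the block). Irs2, an adaptor of the insulin receptor, fell in soleus by 1.57 and was 0.18 in plantaris (1.74, 0.16 and 0.027). Igf1r rose in plantaris by 1.04 and was 0.29 in soleus (0.75, 0.078 and 0.019).

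**Figure D3:**
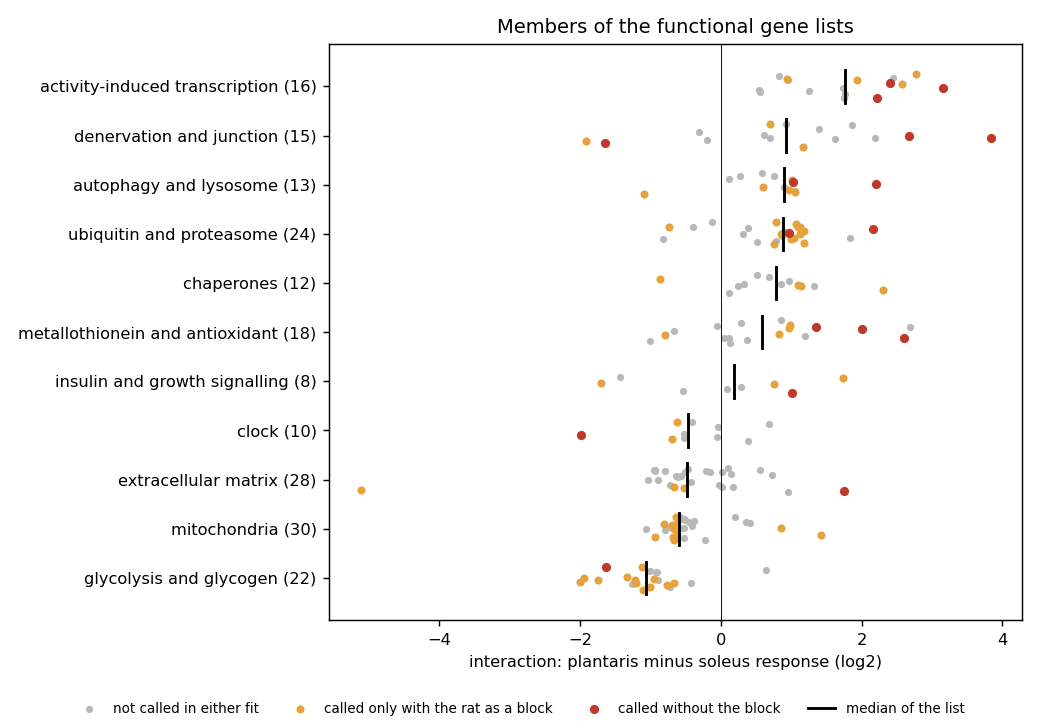
Interaction (horizontal axis, log2, plantaris minus soleus response) of every tested member of 11 gene lists, with the number of members in brackets, genes called in red, genes called only with the rat as a block in orange, the rest in grey and list medians as black bars. Medians run from -1.06 for glycolysis and glycogen to 1.76 for activity-induced transcription, beside -0.03 over all genes tested.

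The medians of the 11 functional lists and of the 8 marker lists kept their sign when the data were scaled by library totals or by size factors of DESeq2. Without HI rats 1 and 3 the median changed sign in 1 list, the adipocyte markers (0.32 to -0.2), and several others came closer to 0 by more than 1.5 times. Blood went from -1.31 to -0.67, fast fibre from -0.97 to -0.57, slow fibre from -0.52 to -0.16, glycolysis from -1.06 to -0.69 and clock from -0.47 to -0.18. Autophagy went from 0.9 to 0.54, chaperones from 0.78 to 0.48 and activity-induced genes from 1.76 to 1.1. The medians of insulin and growth signalling (0.19 to 0.39) and of the immune markers (0.03 to 0.2) moved away from 0. Apart from Pvalb and Gpnmb, 0 of the 45 marker genes were called. The median interaction was -0.97 for fast fibre, -0.52 for slow fibre, -1.31 for blood, 0.17 for endothelium, 0.32 for adipocytes, 0.36 for smooth muscle and -0.94 for nerve and Schwann cells. The slow fibre gene Casq2, the cardiac and slow form of calsequestrin, fell in plantaris (23.2 to 70.3 CPM to 7.02 to 46.7 CPM) and went from 438 to 492 CPM to 101 to 481 CPM in soleus (interaction -0.66, adjusted p = 0.53). Myocd, the coactivator of smooth muscle genes, fell in soleus by 1.62, and Lmod1 fell in plantaris by 1.27. The endothelial gene Pcdh12 fell in both, by 1.02 and 0.92, and Apold1, an early response gene of endothelium, fell in soleus by 1.45 and passed with the block (1.43, adjusted p = 0.15, and 0.028 with the block). Thrsp, a lipogenic gene, rose in plantaris by 2.23 and passed with the block (2.03, 0.083 and 0.025), while Fasn and Scd fell there by 1.23 and 1.73. Uchl1, a neuronal ubiquitin hydrolase that denervated fibres also make, rose in plantaris by 2.94 (interaction 2.44, 0.086 and 0.13), and Cntn2, an axonal adhesion protein, rose in both muscles by 1.43 and 2.64. The haemoglobin genes, whose near-identical copies can share reads, gave interactions between -1.62 and -1.3 with adjusted p-values of 0.13 to 0.34. The summed blood markers were 279 to 1100 CPM and 177 to 497 CPM in plantaris and 214 to 957 CPM and 482 to 1410 CPM in soleus, CTRL before HI, and the part of blood content in the results was not tested.

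The same interaction was then set beside that of the HRT line in a fit of all 48 libraries. There the LRT interaction had 370 calls among 16960 genes (2.18%), 143 of them among the 240, and the HRT interaction had 16 (0.0943%). The line by muscle by immobilization term, which tests the difference between those interactions, gave 0 calls (0%) with edgeR, 0 with limma-voom and 0 with the rat as a block. It gave 461 genes at an unadjusted p under 0.05 with edgeR, 448 with limma-voom and 833 with the block, and the smallest adjusted p was 1 with edgeR and 0.62 with the block. The larger number of calls in LRT is therefore not shown to be a difference between the lines.

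In HRT libraries, which had no part in choosing the 240 genes, 141 of 141 higher genes and 96 of 99 lower genes had the same sign of interaction. Over all genes tested 72.2% had the same sign in both lines. Of the 240, 165 (68.8%) reached an unadjusted p under 0.05 in HRT with the same sign, against 11.7% of all genes. The median interaction of the higher genes was 0.89 in LRT and 0.66 in HRT, and that of the lower genes was -0.81 and -0.5. Since the genes were chosen on their LRT values, a larger LRT value is a description and not a result. In HRT the interaction was 2.87 ± 0.91 for Ampd3, 2.34 ± 0.79 for Gpnmb, 1.42 ± 0.53 for Trim63, 1.39 ± 0.63 for Myog and 1.62 ± 0.55 for Egr1, and none of these passed over all genes (adjusted p between 0.18 and 0.35). Hs3st1 and Gabrr1 did pass in HRT, at -2.44 ± 0.42 and -3.06 ± 0.6 (adjusted p = 0.014 and 0.033). Fosb had an HRT interaction of 0.61 ± 0.95 and a difference between the lines of 2.68 (edgeR, unadjusted p = 0.046), and Pvalb one of -1.86 ± 0.78 and a difference of -2.41 (unadjusted p = 0.027). The smallest unadjusted p for that difference among the named genes was 0.0088, for ENSRNOG00000014720.

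**Figure D4:**
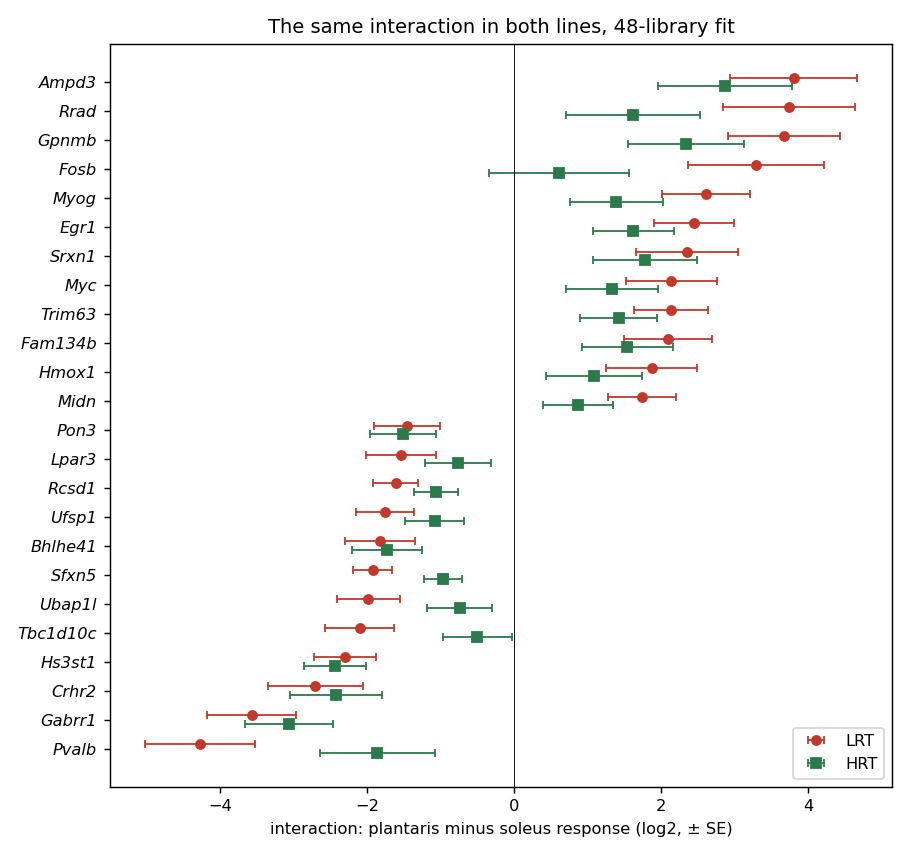
Interaction (horizontal axis, log2, plantaris minus soleus response, ± SE from the 48-library fit) in LRT (red circles) and HRT (green squares) of the 12 named genes with the largest called interaction in each direction in LRT. All HRT estimates lie on the same side of 0 as the LRT estimates, and most lie closer to 0.

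The number of calls moved with single libraries. All 240 kept their sign in every fit with 1 of the 24 libraries left out. This follows largely from choosing them on the same libraries. In these fits between 24 and 638 genes were called, and 22 of the 240 were called in all of them. Of these 22, 7 had a symbol: Gpnmb, Tubb4b, Arrdc3 and 1 Dusp13 identifier among the higher genes and Sfxn5, Hs3st1 and Pvalb among the lower. Tubb4b, a beta tubulin, and Arrdc3, an arrestin-like adaptor for ubiquitin ligases, were named after their values were seen, with interactions of 1.61 and 1.56 (adjusted p = 0.022 and 0.023). Of the 36 named genes that were called, Trim63 kept its call in 10 of the 24 fits, Myog in 21, Ampd3 in 21, Egr1 in 18, Myc in 15, Fosb in 9, Srxn1 in 6, Hmox1 in 6 and Rrad in 6. Without HI rats 1 and 3, 17 of the 36 named calls were kept. The 19 lost were Bhlhe41, Cat, Crhr2, Egr1, Fam134b, Fbxo31, Fosb, Gabrr1, Gpnmb, Hmox1, Lpar3, Ltbp1, Midn, Myc, Myog, Rrad, Tbc1d10c, Trim63 and Ubap1l. Without CTRL rat 3, 16 were lost: Bhlhe41, Crhr2, Egr1, Fosb, Hdac9, Hmox1, Ltbp1, Midn, Myc, Rcsd1, Rrad, Slc37a4, Srxn1, Tbc1d10c, Ubap1l and Ufsp1. With limma-voom 10 were lost: Fbxo31, Fosb, Gpnmb, Hmox1, Ltbp1, Myc, Rrad, Srxn1, Trim63 and Ubap1l. With all 48 libraries 9 were lost: Fam134b, Fbxo31, Hmox1, Lpar3, Myc, Pon3, Srxn1, ENSRNOG00000002864 and ENSRNOG00000014316. When genes with any count were tested 14 were lost. HI rats 1 and 3 held the 2 most extreme values of the 6 cast plantaris muscles, on the side of the interaction, in 145 of the 240 genes (60.4%), against 36.2% of all genes tested.

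**Figure D5:**
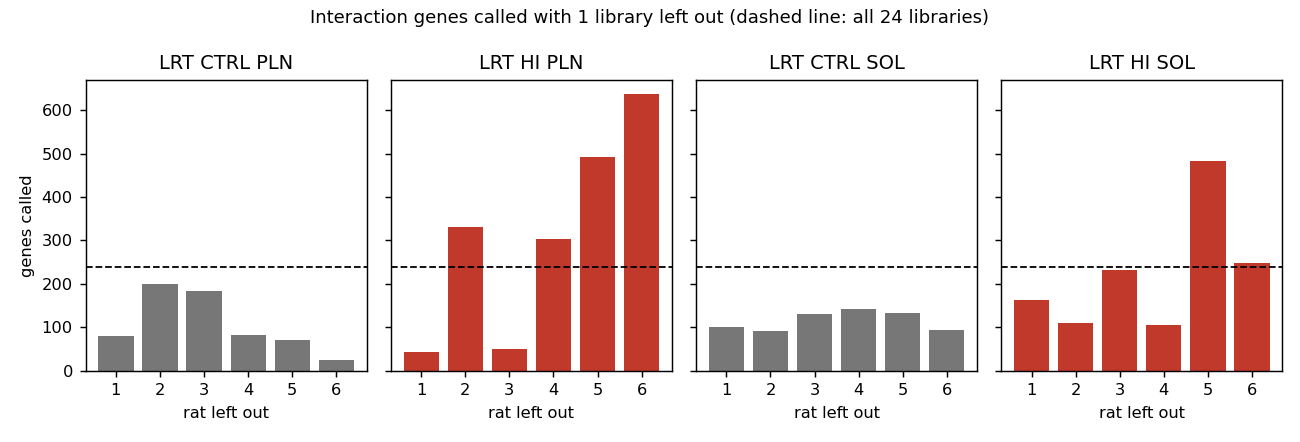
Number of genes called for the interaction (vertical axis) when 1 library is left out, by group and rat (horizontal axis), beside the 240 called with all 24 libraries (dashed line). The fewest, 24, remain without uncast plantaris 6, followed by 44 and 50 without cast plantaris 1 and 3, and the most, 638, without cast plantaris 6.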

How the data were processed

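RNA sequencing libraries of plantaris and soleus were analysed for 12 LRT rats (24 libraries), and those of 12 HRT rats entered the comparison of the lines and an alternative fit of all 48 libraries. The authors made the deposited estimated counts with Salmon 0.9.1 against the Ensembl Rnor_6.0 transcripts and summarised them per gene, for 31998 identifiers. The study's methods also name a length normalisation scaled to TPM, and whether it is in the deposited values was not settled here. The labels and the study's methods name different library kits, so whether strand was used was not settled here and overlapping genes may share reads. Counts were rounded to whole numbers, filtered with filterByExpr and scaled by TMM. Groups and RIN were fitted with edgeR 4.0.16 (quasi-likelihood, R 4.3.3), p-values were Benjamini-Hochberg adjusted over all 16362 genes tested, and a call was an adjusted p under 0.05. CPM uses the TMM-scaled library sizes, and ± is the standard error. P-values of the fit without the block measure the spread between libraries and leave the pairing of the muscles within a rat unused. Those with the rat as a block use that pairing. RIN values are those of the labels, and some lie below the minimum that the study's methods state.

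Plantaris and soleus of the same rat number correlated in their deviations from the group means in 12 of 12 pairs (r 0.14 to 0.4), each best with its own number, so a fit with the rat as a block is given beside results it changes. DESeq2 1.42.0, limma-voom (limma 3.58.1), other scalings, a filter of any count, no RIN, all 48 libraries and single libraries left out were tried. Named genes were the 12 largest called interactions in each direction with a symbol and a group median of at least 1 CPM, the 4 with the smallest p, up to 4 per list by p, Trim63, Fbxo32, Hdac4, and 2 identifiers without a symbol in each direction. Members and lists were chosen with earlier results of these data known. Symbols came from identifier and symbol columns of the study's gene tables, whose fold changes and p-values were not used. Genes with no such pairing, such as the myosin heavy chains, were not analysed here by name. Promoters came from RefSeq on GRCr8. Some genes are not reported here.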

Additional observations from a re-analysis of the deposited data

Results flagged for a closer look

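The interaction test flagged 240 genes whose response to casting differed between plantaris and soleus, and these are described above. In addition, 27 of 376 sets of 6 rats examined over the named genes (7.18%) had 1 sample far from the other 5 on the log2 scale with a pseudocount of 0.1 CPM, where chance flags about 1 in 20. Uncast rat 3 gave most of them. In its soleus the high values were 131 CPM for Myog, 738 for Hspa5, 550 for Hspb1, 74 for Psmd5, 8.59 for Clec1a and 3.43 for Clec9a, and the low values were 11600 for Car3, 62.7 for Fbxo32, 9.95 for Per3, 6.55 for Pik3ip1, 41.2 for Tef and 0.89 for Sfxn5. In its plantaris the high values were 335 CPM for Hspb1, 35 for Psmd5, 526 for Sqstm1 and 2.2 for Ubap1l, and the low ones 23.2 for Casq2 and 7.18 for Scd.

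The other uncast samples set apart were plantaris 1 for Apold1 (49.9 CPM), plantaris 5 for Cidea (2.04 CPM) and soleus 6 for Ubap1l (0.324 CPM). Among cast samples these were plantaris 4 for Mfap4 (0.584 CPM), plantaris 5 for Per3 (27.3 CPM), soleus 5 for Per3 (41.7 CPM) and Hspb1 (564 CPM), soleus 3 for Pln (37.2 CPM) and soleus 4 for Siglec5 (1.19 CPM).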

How the results depend on the processing

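All 240 genes kept their direction under every alternative run. They were chosen on this contrast in libraries that every alternative shares, so this was largely set by the choice. The 240 calls became 86 when genes with any count were tested, 866 with the DESeq2 Wald test, 370 with all 48 libraries, 1096 with the rat as a replicate block and 1094 with limma-voom and that block. They became 111 without uncast rat 3 and 79 without cast rats 1 and 3, and ranged from 24 (without uncast plantaris 6) to 638 (without cast plantaris 6) with 1 library left out. At stricter and looser thresholds there were 109 genes with an absolute log2 difference over 1, 0 at an adjusted p under 0.001 and 3181 at an unadjusted p under 0.05 (edgeR). Without the RIN covariate 4754 genes passed in plantaris, 2328 in soleus and 316 for the interaction, 207 of these among the 240. The 5008 calls in plantaris became 2838 without cast rats 1 and 3. The 1562 calls in soleus became 2364 with all 48 libraries, 919 without uncast rat 3 and 479 without cast rats 1 and 3, and ranged from 670 (without cast soleus 3) to 2413 (without cast soleus 6). The fits without these rats, the voom fit with the block and the list medians under other settings were chosen after seeing the data. Of the 36 named calls, 27 were lost without uncast plantaris 6 and 25 each without cast plantaris 1 or 3. Neither Pcdh12 nor Ankrd2 was called: Pcdh12 turned to 0.02 with library totals, and with 1 library left out ranged from -0.31 to 0.01 (without uncast soleus 6), and Ankrd2 ranged from -0.22 (without cast plantaris 5) to 2.28. The block ended the calls of Rrad, Fosb, Hmox1 and Ltbp1 among named genes. The cause of these changes was not tested.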
